A study of Mus musculus with 8 samples.

Results

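Cytosolic ribosomal protein genes encode the proteins of the large and the small subunit of the ribosome that translates messenger RNA in the cytoplasm. They were chosen by symbol, as protein-coding genes of GENCODE vM1 on the autosomes named Rpl or Rps with a number, or Rplp with a number, with the Rps6k kinases left out, so that no measured value entered the choice. The rule found 77 of 22367 protein-coding genes. Of these, 39 encode large subunit proteins, 29 small subunit proteins and 3 the acidic stalk proteins, and 6 are paralogs whose symbol carries an l after the number (Rpl3l, Rpl7l1, Rpl10l, Rpl22l1, Rpl39l and Rps27l). No promoter of the 77 overlapped that of another.

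Ribosomal protein genes are transcribed in every growing cell, and their messenger RNAs are among the most abundant. Their transcripts usually begin with a run of pyrimidines, the terminal oligopyrimidine tract, through which translation follows mTOR signalling. H3K4me3 and H3K9ac mark nucleosomes at active start sites, H3K36me3 is laid down behind elongating RNA polymerase in gene bodies, and H3K27me3 is the mark of Polycomb repression. Genes of this kind therefore serve as an upper reference for the active marks and a lower reference for H3K27me3.

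The 8 libraries came from isografts of the mouse Lewis lung carcinoma line grown under the skin of the flank of young adult female C57BL/6J mice, 1 library for each of 4 histone marks in each of 2 lines. LLC-NR is the drug sensitive line. LLC-R is a derivative of LLC cells selected in mice by repeated rounds of treatment with VEGF-Trap, a decoy receptor that binds vascular endothelial growth factor. No group has a replicate, LLC-R is a single selected line, and how many tumors entered a library is not given in the sources used here, so differences between the lines are differences between libraries and carry no test. The deposited values are positions of peaks 147 bp wide, the size of nucleosomal DNA, without height, so a level is here a number of peaks. Libraries held from 5660458 peaks (H3K4me3 in LLC-R) to 9101721 peaks (H3K27me3 in LLC-R), with 7245090 for H3K27me3 in LLC-NR, 6432447 and 8747519 for H3K36me3 in LLC-NR and LLC-R, and 8547101 and 7853593 for H3K9ac. Promoters of 10 markers of lung epithelium, leukocytes, endothelium and fibroblasts, which an isograft could hold in different shares, carried 4 to 7 H3K4me3 peaks in LLC-NR and 3 to 6 in LLC-R.

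The promoters of the ribosomal protein genes have sequence features that the choice by symbol did not use. Of the 77, 74 were CpG-rich promoters (HCPs), against 53.9% of all promoters, with Rps9 intermediate and Rps2 and Rpl3l CpG-poor. A run of at least 8 pyrimidines on the sense strand within 50 bases of the annotated start site was present in 52 of 77 (67.5%), against 30.7% of HCPs and 30.3% of the 76 mitochondrial ribosomal protein genes (35.7% of all promoters). To show what these runs look like, the following 30-base stretches (mm9, sense strand, 5′ to 3′) hold each run of at least 12 that reached to within 10 bases of the start site, with the run in capitals.
Rpl13a, chr7:52384092-52384121, minus strand: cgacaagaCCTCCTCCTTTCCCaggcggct
Rpl14, chr9:120480618-120480647, plus strand: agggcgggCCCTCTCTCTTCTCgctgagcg
Rpl26, chr11:68715081-68715110, plus strand: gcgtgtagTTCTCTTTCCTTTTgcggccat
Rpl29, chr9:106331764-106331793, plus strand: gccttggaaCCTTTTTTCTCCgccagcagt
Rpl31, chr1:39424670-39424699, plus strand: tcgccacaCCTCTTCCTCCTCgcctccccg
Rpl32, chr6:115758745-115758774, minus strand: ccgccgCCTCTTCCTTCTTCCTCggcgctg
Rps25, chr9:44215767-44215796, plus strand: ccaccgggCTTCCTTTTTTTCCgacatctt

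The palindrome CTCGCGAG, an element known to be bound by the protein BANP, was found between 200 bases before and 50 bases after the start site in 8 of 77 promoters (10.4%), against 1.85% of HCPs and 1.05% of all promoters. A palindrome reads the same on both strands. Of these matches 5 are given here, in capitals within 30 bases.
Rpl12, chr2:32817168-32817197, plus strand: ggccagcggttCTCGCGAGagctgagcttt
Rpl26, chr11:68715032-68715061, plus strand: gctccgagactCTCGCGAGatctcgcggca
Rpl27a, chr7:116662676-116662705, plus strand: gcgcctgctacCTCGCGAGacttcgtgagc
Rps6, chr4:86503303-86503332, minus strand: cgccggctgttCTCGCGAGaacttagagcg
Rps28, chr17:33961489-33961518, minus strand: ccgcgtgcggtCTCGCGAGagcgaaagtga

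Other short motifs were counted in the same window on both strands, and matches are descriptions of letters. The ETS motif CCGGAAG occurred in 23 members (29.9%), against 16.7% of HCPs and 32.9% of mitochondrial ribosomal protein genes (10.2% of all promoters). AAGATGG, the core of the YY1 motif, occurred in 9 members (11.7%) against 6.30% of HCPs and 6.06% of all promoters. The GC box GGGCGG was found in 34 members (44.2%), against 68.3% of HCPs and 42.2% of all promoters, and CCAAT in 23 (29.9%), against 33.8% and 33.6%. GCGCATGC, which NRF1 binds, was found in 3 members (3.90%, against 5.24% of HCPs and 3.10% of all promoters), and TATAA between 40 and 20 bases before the start in 4 (5.19%, against 1.59% and 3.90%). Members were short genes, with a median length of 3368 bp against 15427 bp over all genes, and 27 of them (35.1%) held 53 annotated small nucleolar RNA genes, RNAs that guide the modification of ribosomal RNA, against 1.20% of all genes. Rpl4 held 5 of these, and Rpl7a and Rpl13a held 4 each. A divergent protein-coding gene started within 1 kb upstream of 10 members (13.0%, against 12.7% of HCPs).

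Promoters, taken from 1 kb before to 0.5 kb after the start site, were more densely occupied by the active marks in these genes than in promoters at large. Members carried 6.30 ± 1.24 H3K4me3 peaks in LLC-NR tumors and 5.6 ± 1.15 in LLC-R (mean ± SD across 77 genes), against 4.91 ± 2.06 and 4.60 ± 1.90 over all 22367 promoters and 3.16 and 3.10 over 1087 olfactory receptor promoters, which are silent outside the nose. For H3K9ac the members had 6.45 ± 0.91 and 5.62 ± 1.06 peaks, against 5.51 and 4.96 over all promoters and 4.90 and 4.37 over olfactory receptors. Set against windows of the same length at least 5 kb from any start site, members had 1.96 times the background of H3K4me3 in LLC-NR and 1.74 times in LLC-R, and 1.31 and 1.24 times that of H3K9ac. The mitochondrial ribosomal protein genes, which serve a separate ribosome and are also used in most cells, stood at 2.04 and 1.85 times for H3K4me3 and 1.30 and 1.27 times for H3K9ac. Olfactory receptor promoters stood at 0.981 and 0.962 times for H3K4me3, so that the whole span from silent to constitutive promoters was narrow in these peak numbers. In a tissue sample, fewer cells carrying a mark and less of the mark in each cell cannot be told apart.

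The share of members above the mean of all promoters of the same library was 89.6% for H3K4me3 in LLC-NR (69 of 77, exact Clopper-Pearson 95% interval 80.6 to 95.4%), against 63.8% of all promoters. In LLC-R it was 87.0% (67 of 77, 77.4 to 93.6%) against 58.8%. For H3K9ac it was 89.6% in LLC-NR (80.6 to 95.4%) against 62.2%, and 87.0% in LLC-R (77.4 to 93.6%) against 70.4%. Because HCPs reached 89.3% and 83.7% for H3K4me3, the members differed little from CpG-rich promoters in that mark, whereas for H3K9ac HCPs stood at 68.7% and 75.9%. Mitochondrial ribosomal protein genes stood at 78.9% and 90.8% for H3K9ac, so a high share in this mark was not particular to the members. These intervals cover counting over genes only, and since counts are whole numbers up to 9, a small shift of the mean past a whole number moves the shares.

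H3K27me3 was sparser at these promoters than at promoters at large, at CpG-rich promoters and at olfactory receptor genes. Members carried 3.44 ± 1.53 peaks in LLC-NR tumors and 4.62 ± 1.36 in LLC-R, against 4.55 and 5.45 over all promoters, 4.68 and 5.58 over HCPs, 3.91 and 5.09 over mitochondrial ribosomal protein genes and 4.27 and 5.43 over olfactory receptors. In both lines 20 of 77 members (26.0%, 16.6 to 37.2%) lay above the mean, against 56.5% of all promoters in LLC-NR tumors and 58.7% in LLC-R. The members were at 0.812 and 0.871 times the background windows, where all promoters were at 1.08 and 1.03 times. H3K36me3 at promoters was close to that of all promoters, 3.29 ± 1.39 and 5.22 ± 1.10 peaks against 3.20 and 4.96, with 39.0% of members above the mean in LLC-NR (43.5% of all promoters) and 79.2% in LLC-R (69.7% of all promoters).

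**Figure D1:**
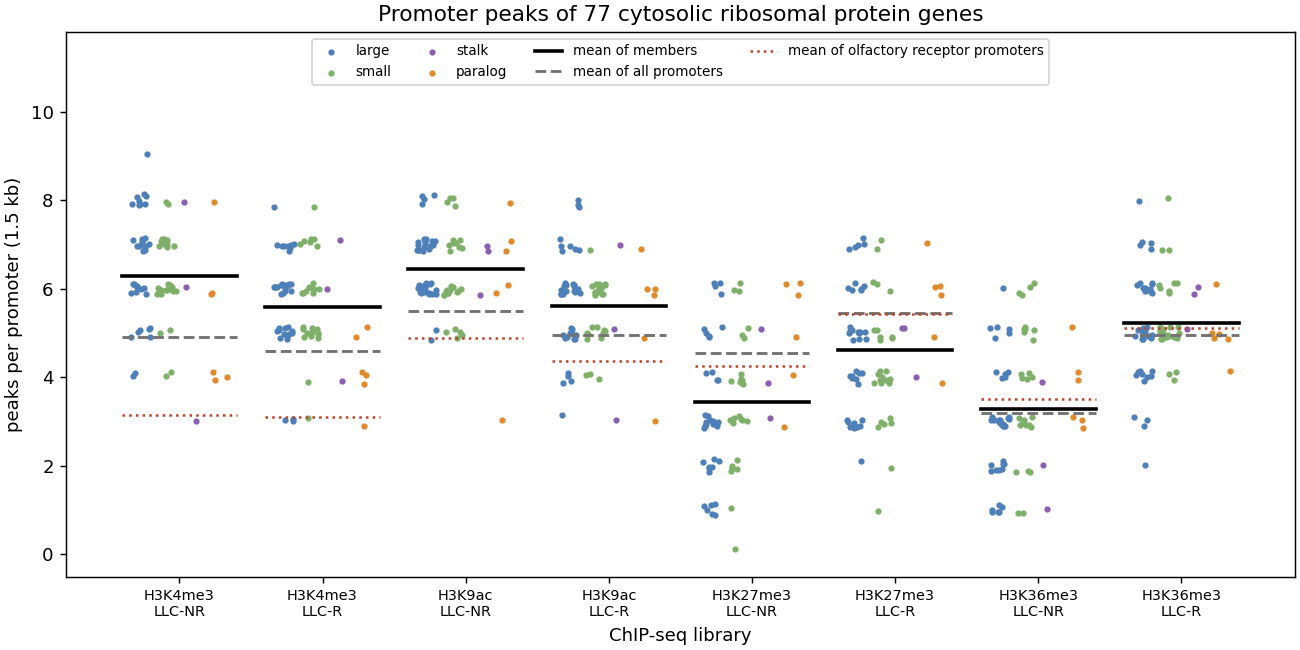
Peaks per 1.5-kb promoter for each of 77 ribosomal protein genes (points, spread slightly for visibility, by class: large subunit, small subunit, stalk, paralog) in the 8 libraries, with lines for the mean of the members (solid), of all 22367 promoters (dashed) and of 1087 olfactory receptor promoters (dotted). The members' mean lies above that of all promoters for H3K4me3 and H3K9ac in both lines and below it for H3K27me3.

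Of the promoter means of large and small subunit genes, those of H3K36me3 in LLC-NR lay furthest apart. The 39 large subunit genes carried 6.54 ± 1.21 H3K4me3 peaks in LLC-NR tumors and 5.72 ± 1.12 in LLC-R, and the 29 small subunit genes 6.24 ± 0.951 and 5.72 ± 1.07. In H3K27me3 they stood at 3.18 ± 1.54 and 3.41 ± 1.45 peaks in LLC-NR, and at 4.72 ± 1.38 and 4.28 ± 1.36 in LLC-R. H3K36me3 in LLC-NR was 2.95 ± 1.32 peaks in large and 3.76 ± 1.46 in small subunit genes, and 5.13 ± 1.30 and 5.34 ± 0.897 in LLC-R. In LLC-NR 28.2% of large and 51.7% of small subunit genes lay above the mean of all promoters.

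The members with the most H3K4me3 over both lines were Rpl12, Rpl4, Rpl35, Rplp1 and Rps27. Rpl12, at the base of the stalk (chr2:32817079-32820016), had 9 peaks in LLC-NR, the most of any member, and 7 in LLC-R. Rpl4, which lines the tunnel through which the new protein leaves (chr9:64021194-64026369), had 8 in each line. Rpl35, Rplp1 and Rps27 each had 8 and 7. In H3K9ac these genes had 7 peaks each in LLC-NR, a common value among the members, and 5 to 7 in LLC-R.

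The members with the least were Rpl10l, Rpl38, Rplp0, Rps19 and Rpl37a. Rplp0, the protein on which the stalk is built (chr5:116009476-116013736), had 3 H3K4me3 peaks in LLC-NR tumors and 4 in LLC-R, and 6 and 3 H3K9ac peaks. Rpl38, whose loss in mice disturbs the patterning of the skeleton (chr11:114529838-114533645), had 4 and 3 H3K4me3 peaks, and Rps19, the gene most often mutated in Diamond-Blackfan anaemia (chr7:25669390-25674825), also 4 and 3. Rpl37a had 5 and 3, and the paralog Rpl10l 4 and 3. Fewer positions can receive a uniquely mapped read at some of these: of the 36-base words in the promoter, 67.6% occurred once in the genome for Rpl37a, the lowest value of all members, 78.4% for Rpl38, 80.2% for Rplp0 and 91.5% for Rps19, against a median of 94.5% over the members. The part of mappability in these counts was not tested. The annotated start also matters for Rps19, whose 10 transcripts share no start site. At the most downstream start of its protein-coding transcripts, 546 bp away, it had 5 H3K4me3 peaks in each line.

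Of the acidic stalk proteins, which recruit the GTPases of translation, Rplp1 had 8 and 7 H3K4me3 peaks in LLC-NR and LLC-R and Rplp2 6 and 6, so that Rplp0 stood apart from both. Rpl5 and Rpl11, which bind the 5S ribosomal RNA and can restrain Mdm2, had 5 and 6, and 4 and 5 H3K4me3 peaks. Their H3K27me3 was 1 and 5 peaks for Rpl5 and 4 and 6 for Rpl11. Rps6, the substrate of the S6 kinases downstream of mTOR, had 7 and 5 H3K4me3 peaks and 4 H3K27me3 peaks in each line. Rps14, whose partial loss causes anaemia in a human myelodysplastic syndrome, had 6 and 5 H3K4me3 peaks and 4 H3K27me3 peaks in each line. At the most downstream start of its protein-coding transcripts, 1729 bp away, Rps14 had 8 and 3 H3K4me3 peaks. Rpl13a, known also for silencing of messenger RNAs after interferon, had 7 and 6 H3K4me3 peaks. It had 7 and 5 of H3K9ac, and of H3K27me3 4 and 3. Rpl22, needed for T cell development, had 8 and 6 H3K4me3 peaks and 2 and 5 H3K27me3 peaks.

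The paralogs carried on average more H3K27me3 and less H3K4me3 than the canonical members in both lines. Their mean H3K27me3 was 5.0 ± 1.26 peaks in LLC-NR tumors and 5.67 ± 1.03 in LLC-R (6 genes), against 3.31 ± 1.48 and 4.54 ± 1.35 over 71 canonical members. Their H3K4me3 was 5.33 ± 1.63 and 4.17 ± 0.753 peaks, against 6.38 ± 1.18 and 5.72 ± 1.10. Rpl3l, used in heart and skeletal muscle, had 4 H3K4me3 peaks in each line and 5 and 7 H3K27me3 peaks. At the most downstream start of its protein-coding transcripts it had 6 and 4 H3K4me3 peaks. Rpl10l, an intronless gene of male germ cells, had 4 and 3 H3K4me3, 3 and 3 H3K9ac and 3 and 5 H3K27me3 peaks. Rpl39l, also a germ cell gene, had 4 H3K4me3 and 6 H3K27me3 peaks in each line. Rpl22l1, the paralog of Rpl22, and Rps27l, a p53 target, had more H3K4me3, 6 and 5, and 8 and 5 peaks. Each of them had 6 H3K27me3 peaks in both lines. Rpl7l1 had 6 and 4 H3K4me3 peaks and 4 H3K27me3 peaks in each line. The tissue-restricted paralogs Rpl3l, Rpl10l and Rpl39l thus had H3K4me3 counts at the lower edge of the members, and Rpl10l alone of the 6 had fewer than 5 H3K9ac peaks in either line.

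**Figure D2:**
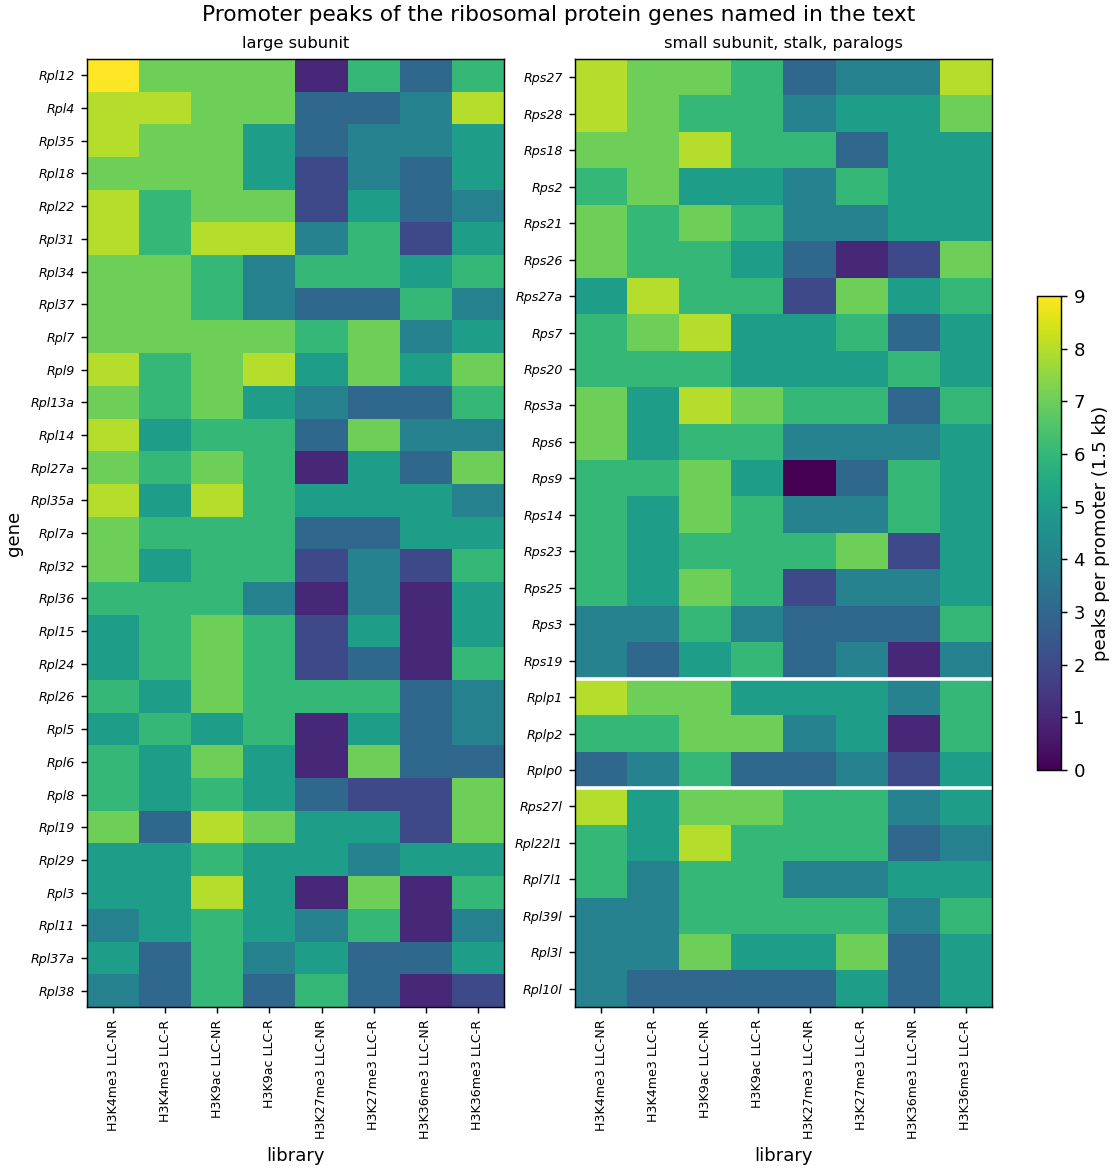
Peaks per 1.5-kb promoter (colour, 0 to 9) for the ribosomal protein genes named in the text (rows, ordered within class by summed H3K4me3) in the 8 libraries (columns), with the large subunit on the left and the small subunit, stalk and paralogs on the right, separated by white lines. The H3K4me3 and H3K9ac columns are the brightest, and H3K27me3 and H3K36me3 in LLC-NR are the darkest, with Rps9 at 0 H3K27me3 peaks.

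Promoters were put into classes named as in the study, with the mean peak number of all promoters in the library as the threshold: active promoters reach it for H3K4me3 or H3K9ac and stay below it for H3K27me3, bivalent promoters reach it for both kinds of mark, repressive ones for H3K27me3 alone, and the rest reach no threshold. The methods of the study ask for a multiple of the mean tag count for the active marks, which no promoter reaches in peak numbers, so the classes here are not those of the study. In LLC-NR 55 of 77 members were active (71.4%, exact interval 60.0 to 81.2%), against 29.8% of all promoters, and 20 were bivalent (26.0%), against 48.3%. None was repressive, against 8.2% of all promoters, which allows a share of up to 4.68%, and 2 reached no threshold, against 13.6%. In LLC-R 52 were active (67.5%, 55.9 to 77.8%), against 28.4% of all promoters, 20 bivalent against 52.9%, none repressive against 5.73%, and 5 below all thresholds against 12.9%. Of HCPs 40.3% and 38.6% were active, and of mitochondrial ribosomal protein genes 60.5% and 53.9%. H3K4me3 and H3K9ac both above and H3K27me3 below the mean, the full pattern of an active promoter, was met by 46 members in LLC-NR (59.7%, against 20.1% of all promoters) and 45 in LLC-R (58.4%, against 18.4%). Both lines showed it for 35 members (45.5%, against 8.995% of all promoters and 26.3% of mitochondrial ribosomal protein genes).

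The class was the same in both lines for 56 members (72.7%, against 62.1% of all promoters), 44 of them active and 11 bivalent. The 11 that were bivalent in both lines were Rpl7, Rpl9, Rpl26, Rpl34, Rps3a, Rps7, Rps23 and the paralogs Rpl3l, Rpl22l1, Rpl39l and Rps27l, so that 4 of 6 paralogs but 7 of 71 canonical members were in this group. From active to bivalent moved 9, among them Rpl3, Rpl6, Rpl11, Rpl12 and Rps27a, and from bivalent to active 7, among them Rpl19, Rplp1 and Rps18. Rpl10l reached no threshold in both lines, Rps19 none in LLC-NR, and Rps3, Rpl37a, Rpl38 and Rplp0 none in LLC-R, where each still carried at least 3 peaks of each of these marks. Of the 71 canonical members, 16 fell into the bivalent class in each line (22.5%).

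Around the start site the peaks of these genes were few at the start itself and dense just downstream. Midpoints of H3K4me3 peaks were scarce from 100 bp before to 100 bp after the start (2.79 per kb in LLC-NR tumors and 2.34 in LLC-R), and dense from 100 to 200 bp downstream (6.62 and 5.97 per kb), where the first nucleosome of the transcribed region lies. There, 51 of 77 members had an H3K4me3 peak in LLC-NR tumors and 46 in LLC-R, against 60.1% and 55.8% of the other HCPs. For H3K9ac 51 and 50 members had a peak in that window (66.2% and 64.9%), against 51.2% and 45.8% of HCPs. Among mitochondrial ribosomal protein genes the share was 69.7% in each line for H3K4me3, and 71.1% and 56.6% for H3K9ac. The first H3K4me3 peak downstream of the start was centred at a median of 144.5 bp in LLC-NR (quartiles 103 and 178) and 143 bp in LLC-R, against 122 and 124 bp in HCPs. Of 75 members with such a peak in both lines, 48 had it at the same position within 20 bp, and the median shift was 8 bp. This share was 64%, against 56.2% of HCPs and 67.6% of mitochondrial ribosomal protein genes. For H3K27me3, members with a peak in the window were 33 and 30 (42.9% and 39.0%), against 44.2% and 44.3% of HCPs, and every window counted, from 1 kb upstream to 500 bp downstream, held fewer midpoints than in HCPs in both lines. Around the start itself the density was 1.30 and 1.62 per kb against 2.67 and 3.20, from 1 kb to 500 bp upstream 2.29 and 3.61 against 3.09 and 3.89, and from 500 to 150 bp upstream 2.15 and 3.12 against 3.08 and 3.72. From 250 to 500 bp downstream it was 2.65 and 2.81 against 3.27 and 3.78.

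H3K36me3 was denser on the first nucleosome of these genes than on that of other CpG-rich promoters in LLC-NR. A peak of this mark lay 100 to 200 bp downstream in 30 of 77 members (39.0%), against 20% of HCPs and 28.9% of mitochondrial ribosomal protein genes. In LLC-R it was 37 of 77 (48.1%), against 38.2% and 52.6%. From 50 to 250 bp downstream the density was 2.66 per kb in LLC-NR, against 1.63 in HCPs, and 3.57 against 3.14 in LLC-R.

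In the 150 bp just upstream of the start, where transcription factors bind and nucleosomes are often missing, the lines differed. An H3K4me3 peak was centred there in 37 of 77 members in LLC-NR (48.1%, exact interval 36.5 to 59.7%) and in 20 in LLC-R (26.0%, 16.6 to 37.2%), against 54.4% and 48.0% of HCPs and 39 and 33 of 76 mitochondrial ribosomal protein genes. For H3K9ac it was 33 and 25 members, against 37.1% and 30.4% of HCPs. With the most upstream start site the H3K4me3 numbers were 38 and 21 members. For most members that is the start site already used, so this alternative could change little. With the most frequent start site of protein-coding transcripts, the downstream one where tied, they were 39 and 24 members. That choice was made after the data were seen. Without replicates the spread between tumors is not known for this difference. Per promoter, the 150 bp upstream held 0.481 H3K4me3 peaks in LLC-NR tumors and 0.260 in LLC-R, the stretch from 500 to 150 bp upstream 1.58 and 1.30, and the first 250 bp downstream 1.09 and 1.12.

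At the 8 palindromes, whose position was not chosen by any peak, an H3K4me3 peak covered the centre of the motif in 3 in each line, and an H3K9ac peak in 2 in LLC-NR tumors and 0 in LLC-R. H3K27me3 covered 1 and 0 and H3K36me3 0 and 1 of them. H3K4me3 peaks covered 61.7% and 54.9% of the bases of the members' promoters as a whole. That is an unlike comparison, since the palindromes shown lie close to the start. From 100 bp before to 100 bp after it the members had 2.79 and 2.34 H3K4me3 midpoints per kb. From 1 kb to 500 bp upstream they had 3.95 and 3.64. At the centres of the 7 pyrimidine runs shown, H3K4me3 peaks covered 2 and 0 and H3K9ac peaks 2 and 1, and no peak of H3K27me3 or H3K36me3 covered any. Members with the palindrome carried 7.0 ± 1.07 and 5.75 ± 0.886 H3K4me3 peaks (8 genes), and the other 69 had 6.22 ± 1.24 and 5.58 ± 1.18.

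**Figure D3:**
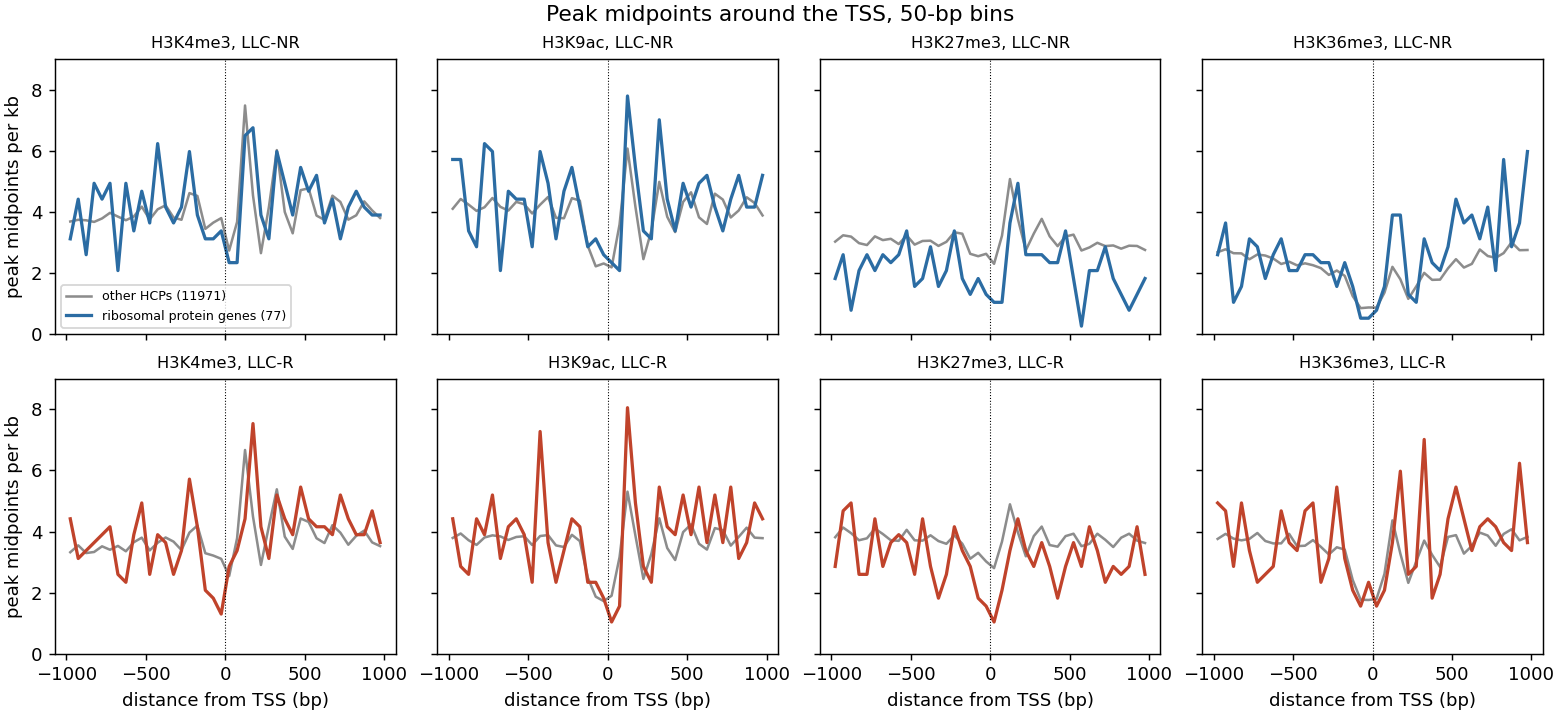
Midpoints of peaks per kb (vertical axis) in 50-bp bins over the 1 kb on either side of the start site (horizontal axis) for 77 ribosomal protein genes (coloured, blue LLC-NR and red LLC-R) and 11971 other HCPs (grey), by mark. For H3K4me3 and H3K9ac both groups show a maximum between 100 and 200 bp downstream, and around the start the members lie below HCPs for H3K27me3, at 1.30 and 1.62 midpoints per kb.

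Peaks of the active marks kept their place between the lines more often than those of H3K27me3. Of 485 H3K4me3 peaks of the members in LLC-NR, 233 had a peak of the same mark in LLC-R within 20 bp (48.0%, 43.5 to 52.6%), against 44.6% in HCPs and 37.5% in all promoters. For H3K9ac it was 255 of 497 (51.3%, 46.8 to 55.8%), against 44.5% and 40.3%. For H3K27me3 it was 82 of 265 (30.9%, 25.4 to 36.9%), against 33.7% and 35.3%, and for H3K36me3 93 of 253 (36.8%, 30.8 to 43.0%), against 34.4% and 33.9%. Within LLC-NR 56.5% of the members' H3K4me3 peaks had an H3K9ac peak at the same place (45.2% in HCPs), and within LLC-R 42.9% (33.3% in HCPs). In mitochondrial ribosomal protein genes these were 61.9% and 43.0%. Only 12 of the 485 positions, in 11 members, held a peak in all 8 libraries. Peaks of 1 promoter share their source, and the intervals treat them as independent.

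Gene bodies, from 0.5 kb after the start to the end of the gene, carried more H3K36me3 in these genes than in others. The mean was 3.77 ± 0.675 peaks per kb in LLC-NR tumors and 4.23 ± 0.584 in LLC-R (77 genes), 1.31 and 1.15 times that of all genes (2.89 and 3.67 peaks per kb). Since the members are short, genes of 1 to 10 kb are the nearer comparison, and against these 6969 genes the ratios were 1.44 and 1.20. Mitochondrial ribosomal protein genes had 3.73 and 4.21 peaks per kb. Among canonical members LLC-NR values ran from 2.66 in Rpl18 to 5.68 in Rps21, a gene of 1069 bp with a short counted body. Rpl10l, with no intron and 1021 bp long, had no H3K36me3 peak in LLC-NR and 1.92 per kb in LLC-R. Its short counted body also held no H3K9ac peak in LLC-NR and no H3K4me3 or H3K27me3 peak in LLC-R. Of the 36-base words in Rpl10l 60.0% occurred once in the genome, the lowest value of all members.

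The active marks spread along the whole of these short genes. H3K4me3 in the bodies of canonical members stood at 4.06 ± 0.571 peaks per kb in LLC-NR tumors and 3.96 ± 0.516 in LLC-R, 1.49 and 1.51 times that of genes of 1 to 10 kb, and H3K9ac at 4.33 and 4.06, 1.22 and 1.24 times. In LLC-NR the 5′ part of the gene, up to its middle, held 4.17 H3K4me3 peaks per kb and the 3′ part 3.58, while for H3K36me3 the values were 3.39 and 3.75. H3K27me3 in the bodies was 1.87 ± 0.916 peaks per kb in LLC-NR tumors and 3.16 ± 0.757 in LLC-R, 0.687 and 0.908 times the shorter genes' level. Bases of canonical members counted as exon held 3.49 H3K36me3 peaks per kb in LLC-NR, and those counted as intron 3.62. The LLC-R values were 4.06 and 4.28. A base that was exonic in any transcript counted as exon, which took in 3020 of 3136 bp of Rpl30 and all 3080 bp of Rpl9. Sequence that is intron in other transcripts can thus lie in the exon class, so these values cannot show whether exons and introns differ. On average 70.8% of exonic but 97.1% of intronic 36-base words occurred once in the genome.

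**Figure D4:**
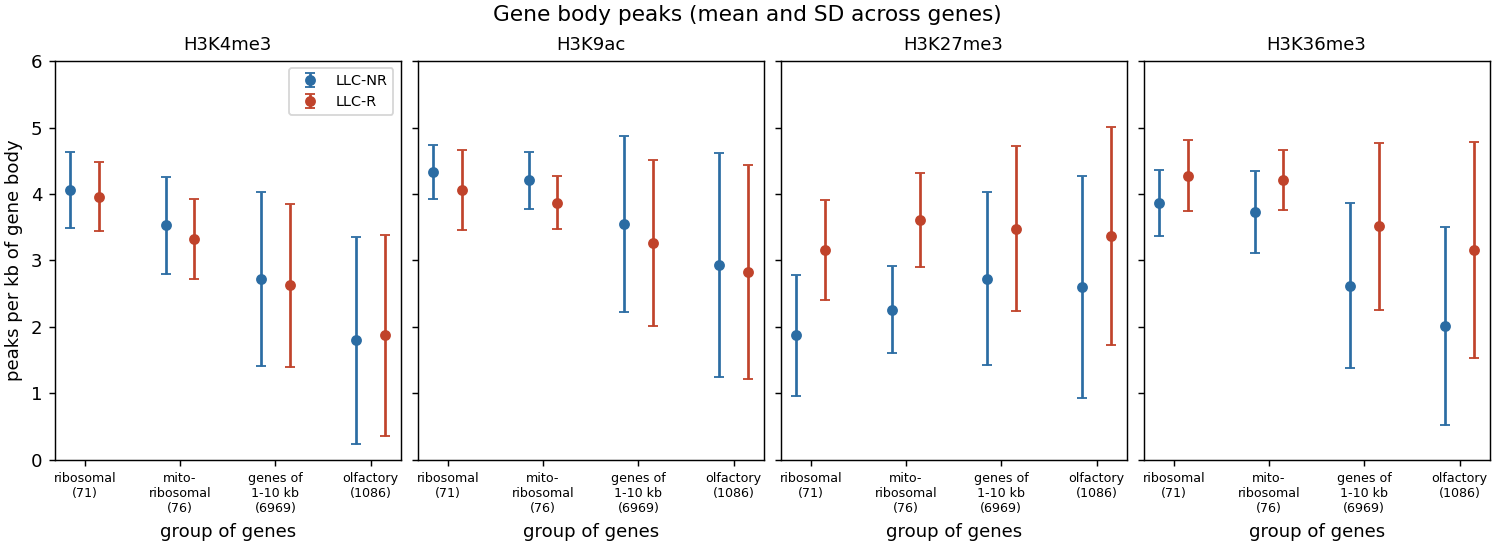
Peaks per kb of gene body (points, mean; bars, SD across genes) by mark in LLC-NR (blue) and LLC-R (red) for 71 canonical ribosomal protein genes, 76 mitochondrial ribosomal protein genes, 6969 genes of 1 to 10 kb and 1086 olfactory receptor genes. The ribosomal protein genes have the highest means for H3K4me3, H3K9ac and H3K36me3 and the lowest for H3K27me3 in both lines.

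Between the lines, each promoter's peaks were divided by the number of peaks in the library, with 0.5 peaks added, and a ratio of 1.5-fold or more was called. For the active marks few members passed. H3K4me3 was higher in LLC-R at 1 member (1.30%, against 7.29% of all promoters) and lower at 5 (6.49%, against 10.4%). H3K9ac was higher at 0 members, against 4.5% of all promoters, and lower at 2 (2.60%, against 6.8%). Of HCPs 2.12% were higher and 6.17% lower in H3K4me3, close to the members, and 3.87% and 6.30% in H3K9ac. For mitochondrial ribosomal protein genes the shares were 0% and 2.63% in H3K4me3, and 1.32% each way in H3K9ac. With 1 library in each group no p-value can be given for these counts. The member with more H3K4me3 was Rps27a, made as a fusion with ubiquitin, with 5 peaks in LLC-NR tumors and 8 in LLC-R (log2 ratio 0.63). Those with less were Rpl19 (7 and 3 peaks, -1.09), Rpl37a (5 and 3, -0.65), Rpl14 and Rpl35a (8 and 5 each, -0.62) and Rps27l (8 and 5, -0.62). At the most downstream start of its protein-coding transcripts, 1556 bp away, Rps27l had 6 and 7 H3K4me3 peaks, and so more in LLC-R. At that of Rps27a, 249 bp away, there were 5 and 7. With the downstream start site of protein-coding transcripts no member was called higher. Rpl35a had 7 and 6 peaks at its own such start, 565 bp away, a difference below the fold. Rpl19 and Rpl14 had 8 and 5 at theirs, and Rpl37a 5 and 3. The members with less H3K9ac were Rpl38 and Rplp0, with 6 and 3 peaks each (-0.77). In unscaled peaks 46 members had fewer H3K4me3 peaks in LLC-R, 20 the same and 11 more, where 43.5% of all promoters had fewer and 25.6% more. The median log2 ratio was -0.20 in members, -0.18 in mitochondrial ribosomal protein genes and 0.00 in HCPs and in all promoters. Medians of whole numbers move in steps, and the mean log2 ratios were -0.155, -0.122, -0.100 in HCPs and -0.068 in all promoters. Of HCPs 48.2% had fewer peaks.

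H3K27me3 and H3K36me3 gave more calls. H3K27me3 was higher in LLC-R at 13 members (16.9%, against 7.7% of all promoters) and lower at 8 (10.4%, against 6.69%). The mitochondrial ribosomal protein genes had similar shares, 14.5% higher and 10.5% lower, and HCPs had 7.11% and 7.97%. Rps9 went from 0 to 3 peaks (2.48), Rpl3, which helps to form the peptidyl transferase centre, and Rpl6 from 1 to 7 each (1.99), Rpl12 from 1 to 6 (1.79) and Rpl27a from 1 to 5 (1.55). Lower values were found at Rps26, which lies at the exit of the messenger RNA channel, with 3 and 1 peaks (-1.55), Rpl38 and Rps18 with 6 and 3 (-1.22), Rpl37a with 5 and 3 (-0.98) and Rpl8 with 3 and 2 (-0.81). The 13 higher calls started from 0 to 3 peaks in LLC-NR tumors, and the 8 lower ones from 3 to 6. The median log2 ratio of the members was 0.03, against -0.12 over all promoters. H3K36me3 was higher at 18 members (23.4%, against 23.3%) and lower at 5 (6.49%, against 5.78%), shares close to those of all promoters. Scaling by the number of uniquely mapped reads in place of peaks turned the balance of calls, to 46 members higher and 0 lower in H3K9ac, 6 and 47 in H3K27me3 and 6 and 36 in H3K36me3, where 59.8%, 1.395% and 5.71% of all promoters were higher and 1.01%, 74.0% and 53.55% lower. Rpl24, Rpl3 and Rplp2 went from 1 to 6 H3K36me3 peaks (1.67), and Rpl15 and Rpl36 from 1 to 5 (1.43). Rpl37 had 6 and 4 (-0.97), Rpl35a 5 and 4 (-0.73), and Rps14, Rps20 and Rps9 6 and 5 (-0.68).

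The mean H3K27me3 of the members was 1.34 times as high in LLC-R as in LLC-NR, against 1.20 times over all promoters. The 20 members with 0 to 2 peaks in LLC-NR had 4.65 ± 1.42 in LLC-R, and 1166 HCPs with the same counts 4.08 ± 1.78. The 37 members with 3 or 4 peaks had 4.22 ± 1.18 in LLC-R, against 5.2 ± 1.20 in 4062 such HCPs, and the 20 with 5 or more had 5.35 ± 1.35, against 6.07 ± 1.08 in 6817. Members thus had a higher LLC-R mean than HCPs in the lowest class and a lower one in the others. Across the 77 members the Spearman correlation between the lines was 0.47 for H3K4me3, 0.34 for H3K9ac, 0.23 for H3K27me3 and 0.05 for H3K36me3, against 0.70, 0.52, 0.56 and 0.47 over all promoters, as a description over genes that share 2 libraries each.

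**Figure D5:**
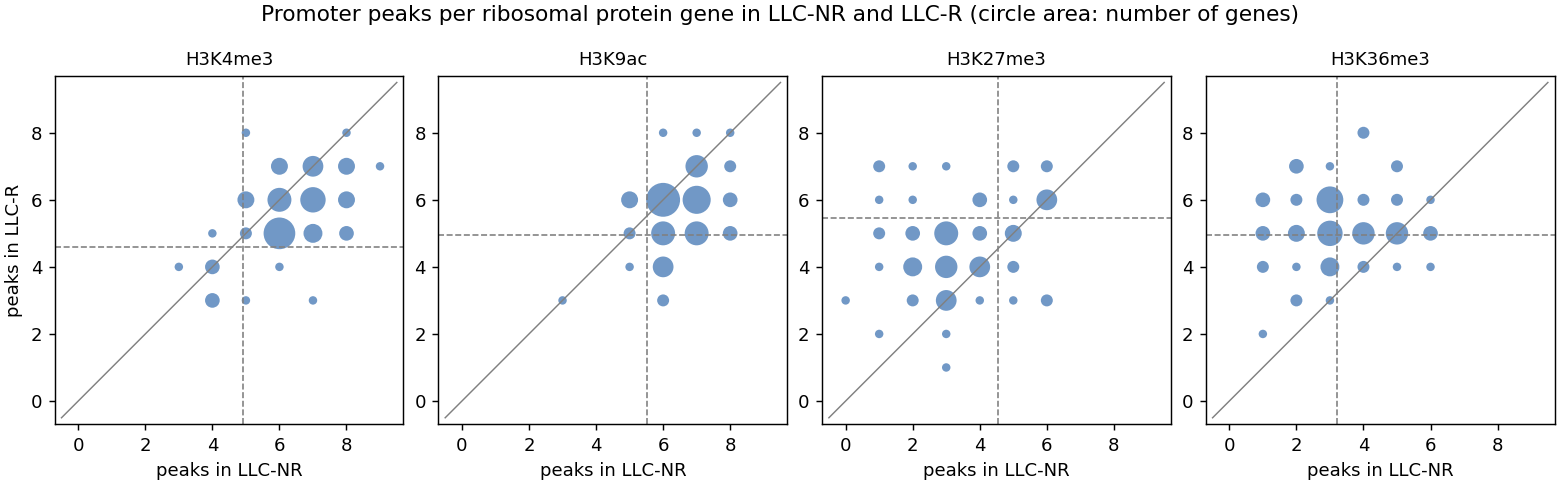
Promoter peaks in LLC-R (vertical axis) against LLC-NR (horizontal axis) for 77 ribosomal protein genes by mark, with circle area proportional to the number of genes, the line of equal numbers, and dashed lines at the mean of all promoters. H3K4me3 and H3K9ac gather in the upper right at 5 to 8 peaks, while H3K27me3 and H3K36me3 lie mostly on or above the line.

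Genes of the same process that the choice by symbol left out had similar levels of H3K4me3. The 9 other ribosomal protein genes (among them Rpsa, Fau, Gnb2l1, Rpl36al and the X-linked Rpl10, Rpl36a, Rpl39 and Rps4x) carried 6.22 ± 0.972 and 6.11 ± 0.928 H3K4me3 peaks in LLC-NR and LLC-R and 3.11 ± 1.27 and 4.44 ± 1.94 H3K27me3 peaks. All 9 were above the mean of all promoters in H3K4me3 in both lines. The 14 other genes with a terminal oligopyrimidine tract, among them the elongation factors Eef1a1 and Eef2, carried 6.64 ± 0.842 and 6.36 ± 1.39 H3K4me3 peaks and 3.50 ± 0.941 and 5.57 ± 1.22 H3K27me3 peaks, the last above the 5.45 of all promoters, and 12 were active in LLC-NR tumors and 8 in LLC-R. The 14 genes of ribosome biogenesis, among them nucleolin (Ncl), fibrillarin (Fbl) and Myc, carried 6.64 ± 0.929 and 6.07 ± 1.21 H3K4me3 and 3.86 ± 1.51 and 4.93 ± 1.27 H3K27me3 peaks, and 10 were active in each line. Past the fold in H3K27me3, 2 of the 9, 3 of the 14 and 2 of the 14 were higher in LLC-R, and 0, 0 and 1 lower, against 7.7% and 6.69% of all promoters. For H3K4me3 1, 0 and 0 were higher and 1, 1 and 0 lower, against 7.29% and 10.4%. H3K9ac was higher at none of the 3 lists and lower at 1 gene of ribosome biogenesis, against 4.5% and 6.8%. H3K36me3 was higher at 2, 5 and 3 and lower at 1, 1 and 0, against 23.3% and 5.78%.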

How the data were processed

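The 8 libraries measured H3K4me3, H3K9ac, H3K27me3 and H3K36me3 by ChIP-seq, 1 for each mark in LLC-NR and in LLC-R isografts. The authors crosslinked the tissue, digested chromatin with micrococcal nuclease, mapped reads to mm9 with Bowtie 0.12.7 and called peaks on uniquely mapped reads with GeneTrack, whose settings are not given in the sources used here. The deposited files give chromosome, start and end of peaks (147 bp each) and hold no height, strand or read count, so the depth behind a peak is unknown and the numbers saturate. No input library was used here.

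Genes were taken from GENCODE vM1, and sequences from the NCBIM37 genome, which is mm9. The start site was the most frequent one among a gene's transcripts, the upstream one where tied. For most members this was the most upstream start site. The alternative for protein-coding transcripts took the downstream one where tied. Peak midpoints were counted in promoters, gene bodies and 1391832 background windows. CpG classes followed the 500-bp rule of the study. Shares have exact Clopper-Pearson intervals at 95%, which cover counting error only, means have the SD across genes, and no test between lines was possible with 1 library in each group. Counting and fold calls were checked on simulated data. Python 3.11.15, NumPy 2.4.6, SciPy 1.17.1 and Matplotlib 3.10.9 were used.

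Named genes were the paralogs, the stalk proteins and 8 further members with known roles (Rpl5, Rpl11, Rps6, Rps14, Rps19, Rpl13a, Rpl22 and Rps27a), the 5 highest and 5 lowest in H3K4me3, and up to 5 past the fold for each mark and direction. Others were named after their values were seen. The members and lists were chosen with earlier results of these data known. Alternatives covered the promoter region, overlap, start site, mappability, scaling, pseudocount, fold and match distance. The totals of uniquely mapped reads for 1 scaling alternative were those stated by the study. Values of single genes that are not named are not reported here.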

Additional observations from a re-analysis of the deposited data

How the results depend on the processing

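Of 250 recomputed values, 198 stayed within the interval or SD across genes of the value reported, or within 1.5 times it for counts of members, and 52 moved. Ratios to background windows and of H3K36me3 in gene bodies were among those that stayed, under the alternatives run. Shares above the mean moved with the threshold: with promoters from 0.5 kb before to 0.5 kb after the start, they were 68.8% for H3K4me3 and 63.6% for H3K9ac in LLC-R, 14.3% for H3K27me3 in LLC-NR, and 70.1% and 41.6% for H3K36me3 in LLC-NR and LLC-R, with 81.8% of members active and 14.3% bivalent in LLC-NR. Counting any overlapping peak gave 74.0% for H3K4me3 in LLC-R, 79.2% for H3K9ac in LLC-NR, 37.7% for H3K27me3 in LLC-R, 51.9% and 59.7% for H3K36me3, and 55.8% active and 37.7% bivalent members in LLC-R. Among promoters with at least 80% unique 36-base words (71 members), where the LLC-R means of all promoters were 5.03 for H3K4me3, 5.36 for H3K9ac and 5.32 for H3K36me3 and so passed 5 peaks, the shares in LLC-R were 56.3%, 60.6% and 38.0%, and 5.63% of members were repressive. With the downstream start site of protein-coding transcripts, an alternative added after the data were seen, they were 96.1% for H3K4me3 in LLC-NR and 48.1% for H3K36me3 in LLC-R. The shares of all promoters under these alternatives are not given, so these shares alone do not compare members with promoters at large. For H3K4me3 in LLC-R the means of members and all promoters were 3.78 and 3.15 with the shorter promoter. They were 6.14 and 5.05 with any overlap, and 5.68 and 5.03 among unique promoters. Matching within 40 bp gave 62.9%, 61.0%, 44.2% and 53.8% for H3K4me3, H3K9ac, H3K27me3 and H3K36me3.

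Members past the fold depended most on the scaling. By uniquely mapped reads, H3K4me3 was higher in LLC-R at 2 and lower at 1, H3K9ac higher at 46 and lower at 0, H3K27me3 higher at 6 and lower at 47, and H3K36me3 higher at 6 and lower at 36, where all promoters were higher at 14.7%, 59.8%, 1.395% and 5.71% and lower at 4.355%, 1.01%, 74.0% and 53.55%, and the median log2 ratio of all promoters moved to 0.27, 0.62, -0.89 and -0.68. Without scaling, H3K9ac was lower at 5 (9.44% of all promoters), H3K27me3 higher at 27 (19.9%) and lower at 4 (1.37%), and H3K36me3 higher at 41 (46.9%) and lower at 0 (0.970%). Scaling by the surrounding 2 Mb left 2 members lower in H3K4me3 (10.6%) and 1 higher in H3K9ac (4.79%). A pseudocount of 1 left 1 lower in H3K4me3 (6.92%). At a fold of 2, H3K4me3 was higher at 0 (2.78%) and lower at 1 (3.30%), H3K9ac lower at 0 (1.79%), H3K27me3 lower at 3 (0.850%), and H3K36me3 higher at 11 (9.83%) and lower at 0 (0.970%). The shorter promoter gave 16 lower in H3K27me3 (16.3%). H3K9ac was lower at 1 with any overlap (5.83%), at 1 among unique promoters (5.56%), where H3K27me3 was lower at 5 (6.54%), and at 4 with the downstream start site (6.59%), where H3K4me3 was higher at 0 (8.29%). Why these values moved was not tested further. A stricter peak threshold was not run, since the files hold no peak height.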

Other observations

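Of 55 intronless genes annotated as protein coding whose names mark them as copies of ribosomal protein genes (suffix -ps), a group chosen after the annotation was seen, none had the full active pattern in LLC-NR and 1 had it in LLC-R. Their promoters carried 2.98 ± 1.41 H3K4me3 peaks in LLC-NR tumors and 2.73 ± 1.47 in LLC-R, at or below the 3.22 peaks of background windows, and 4.22 ± 1.47 and 3.84 ± 1.45 H3K9ac peaks. Most of them were below the mean of all promoters in H3K4me3, H3K9ac and H3K27me3 alike, 30 in LLC-NR (54.5%, against 13.6% of all promoters) and 31 in LLC-R (56.4%, against 12.9%). Along their sequence they held 0.868 and 0.735 H3K4me3 peaks per kb and 0.668 and 1.30 H3K36me3 peaks per kb, where the genes of origin had 3.87 and 3.75, and 3.57 and 4.19. On average 36% of the 36-base words in these copies and 70.4% of those in their promoters occurred once in the genome, and the part of this in the low numbers was not tested.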
